A study of Mus musculus with 2 samples.

Results

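Glutathione transferases were followed across the cell classes sorted from mouse spinal cord as YFP-positive cells. The 7 genes Gsta4, Gstm1, Gstm5, Gstp1, Gsto1, Mgst1 and Mgst3 were picked by symbol from the 27998 gene entries, and all 7 were found once. They were chosen with earlier values of the same libraries in view, so their levels and ratios are given as a description. No test was possible, because each condition had 1 library.

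The animals were C57BL/6J mice of the strain Cx3cr1-CreERT2-YFP::flxRunx1. In that strain, the promoter of the fractalkine receptor gene Cx3cr1 drives YFP and a Cre recombinase that tamoxifen switches on, and Runx1 is flanked by loxP sites. The Runx1-knock-out-labelled library came from animals given tamoxifen at 1 mg per day in 5 daily intraperitoneal injections, and the wild-type-labelled library came from vehicle-injected animals listed under the same transgenic strain. Cells were taken 4 weeks after the first injection. Tamoxifen exposure and loss of Runx1 cannot be told apart in this design, and the number of animals behind each library is not stated in the labels.

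Glutathione transferases join the tripeptide glutathione to reactive, electron-poor molecules, which makes them more soluble and ready for export. The soluble enzymes fall into classes such as alpha, mu, pi and omega, and a separate family sits in membranes and includes enzymes of leukotriene and prostaglandin synthesis. In the nervous system they are known for clearing products of lipid peroxidation in glia and in the blood vessel wall. Many of their genes are known targets of the oxidative stress factor NRF2, which binds antioxidant response elements.

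Promoter sequence from RefSeq (GRCm38.p6) was matched by symbol for 6 of the 7 genes, and the 250 bases before the RefSeq start were searched on both strands. Capitals mark matches to the antioxidant response element core TGACNNNGC, the AP-1 site TGANTCA and the GC box GGGCGG. A search for the TATA box TATAAA found it in none of the 6. The motifs occurred in 10.2%, 6.75%, 32.7% and 12.4% of all 32851 promoter windows of that length. The first pair below held AP-1 letters and belongs to the genes whose highest levels were in oligodendrocyte-like cells, and the second pair belongs to a gene that followed endothelial RNA and to the 1 gene that was higher in microglia-like than in endothelial-like cells. Sequences run 5' to 3' and stop after at most 24 bases inside the gene as GENCODE draws it.
Gstp1, chr19:4037962-4038162, minus strand: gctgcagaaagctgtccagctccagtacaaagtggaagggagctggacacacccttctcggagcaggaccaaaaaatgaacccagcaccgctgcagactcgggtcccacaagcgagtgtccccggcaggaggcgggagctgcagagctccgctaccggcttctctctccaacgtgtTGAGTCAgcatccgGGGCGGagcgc
Gstm5, chr3:107895604-107895844, plus strand: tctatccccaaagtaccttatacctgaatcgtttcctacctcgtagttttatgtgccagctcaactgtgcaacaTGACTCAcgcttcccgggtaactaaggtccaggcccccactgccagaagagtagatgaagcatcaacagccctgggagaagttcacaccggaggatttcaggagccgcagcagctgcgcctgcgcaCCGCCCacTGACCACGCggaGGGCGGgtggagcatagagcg
Gstm1, chr3:108017974-108018223, minus strand: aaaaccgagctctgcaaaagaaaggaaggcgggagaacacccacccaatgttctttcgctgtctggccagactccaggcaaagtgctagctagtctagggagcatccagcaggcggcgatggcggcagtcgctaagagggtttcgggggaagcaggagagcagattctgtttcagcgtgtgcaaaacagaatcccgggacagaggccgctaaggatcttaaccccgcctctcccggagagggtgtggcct
Gsto1, chr19:47854723-47854972, plus strand: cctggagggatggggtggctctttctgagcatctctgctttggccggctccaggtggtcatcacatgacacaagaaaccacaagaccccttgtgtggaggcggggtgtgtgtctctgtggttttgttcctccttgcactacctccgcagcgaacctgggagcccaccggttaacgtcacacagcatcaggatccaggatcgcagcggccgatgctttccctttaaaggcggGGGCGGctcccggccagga

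Gstp1 held the AP-1 letters TGAGTCA starting 74 bases before the RefSeq start, followed by a GC box. Gstm5 held TGACTCA, the antioxidant core TGACCACGC starting 42 bases before the start, and 2 GC boxes, 1 on each strand. Gsto1 held 1 GC box, and Gstm1 held none of the motifs. Of the genes not printed, Mgst1 held the antioxidant core on the minus strand and a GC box, and Mgst3 held 2 GC boxes. The Mgst1 window, chr6:138140277-138140526, lay mostly inside the gene as GENCODE draws it, which starts at 138140316. The Mgst1 matches lay inside the gene so drawn. A match describes letters in a window and does not by itself show a binding site.

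Depth was 13075939 UMIs (unique molecules) over 2604 barcodes in the knock-out-labelled library, against 37446978 UMIs over 4582 barcodes in the wild-type library, and 9 barcode sequences occurred in both. The knock-out-labelled library held 1368 microglia-like, 837 endothelial-like and 138 pericyte or smooth muscle-like cells, and the wild-type library held 2200, 1635 and 193 of them. Smaller classes of the knock-out-labelled library were 72 erythrocyte-like, 26 ependymal-like, 8 oligodendrocyte-like and 4 border-associated macrophage-like cells, and the wild-type library had 55, 17, 18 and 19 of these. Cells carrying microglial and endothelial markers together stayed unnamed, 143 in the knock-out-labelled library and 445 in the wild-type library. All 12 microglial markers were detected in the microglia-like cells, but the other classes show that the sort did not hold microglia alone. Microglia-like cells of the 2 libraries lay almost wholly in different clusters: 1 cluster held 1347 knock-out-labelled and 0 wild-type cells, and another held 8 knock-out-labelled and 2181 wild-type cells. Endothelial-like cells divided likewise, with 819 knock-out-labelled and 2 wild-type cells in 1 cluster and 15 knock-out-labelled and 1556 wild-type cells in another. In microglia-like cells Runx1 was higher in the knock-out-labelled library, at 181 CPM (counts per 1000000 UMIs of the class) against 92.1 CPM in wild type. In endothelial-like cells it was lower in the knock-out-labelled library, at 19.2 CPM against 27.8 CPM in wild type. The log2 ratio of knock-out over wild type was -0.53 there (-0.91 to -0.17). Which exons of Runx1 were floxed is not stated, so 3' tags do not check the label.

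Of the 3 large classes, endothelial-like cells had the highest summed level of the 7 genes. That sum was 1265 CPM (95% Poisson interval 1230 to 1300) in the knock-out-labelled library and 1238 CPM (1218 to 1258) in the wild-type library. In microglia-like cells the sum was 223 CPM (212 to 235) in the knock-out-labelled library and 503 CPM (492 to 514) in the wild-type library. Intervals cover counting error only and no variation between animals or libraries.

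**Figure D1:**
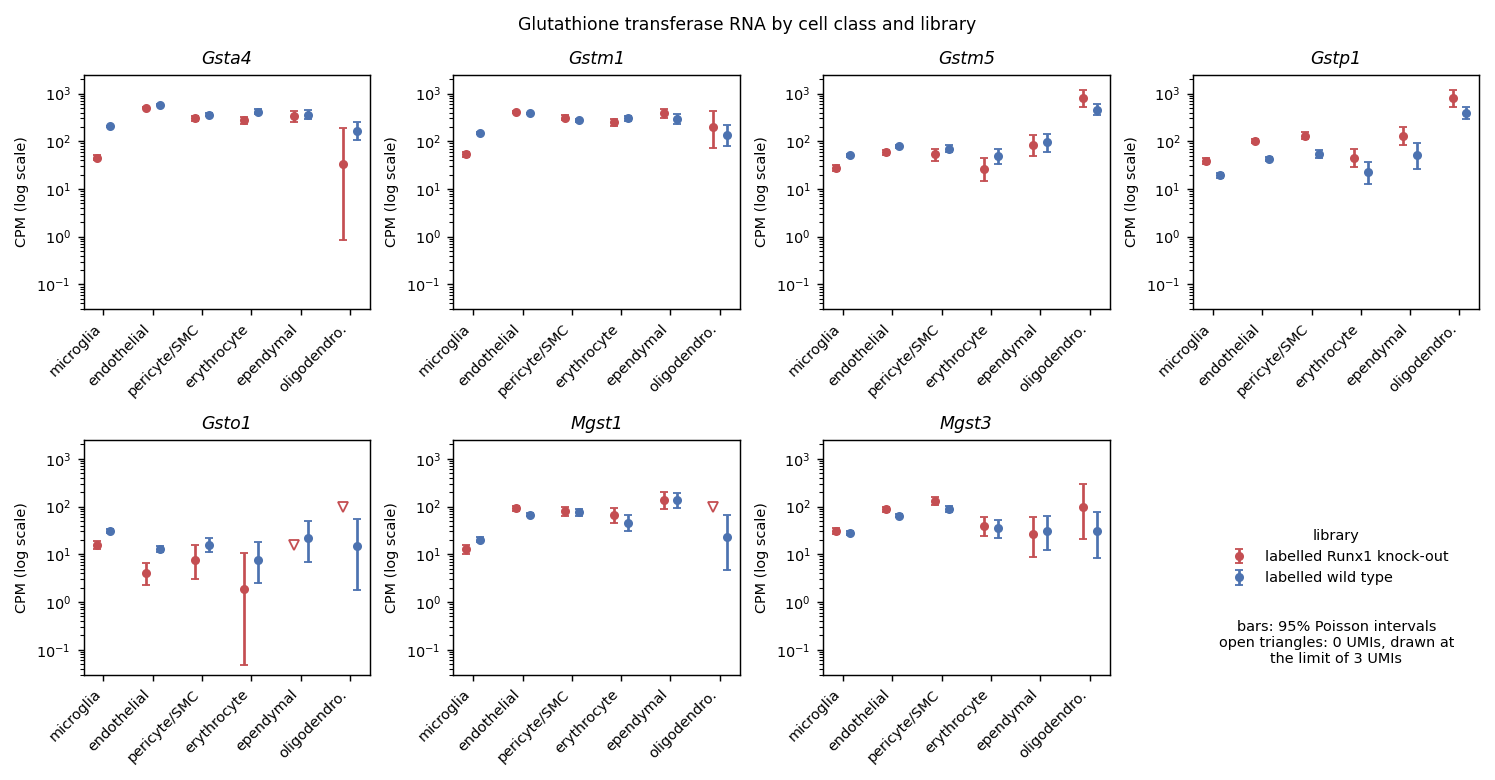
Level of each gene in CPM (log axis) in 6 cell classes of the knock-out-labelled library (red, left) and the wild-type-labelled library (blue, right), with 95% Poisson intervals. Gsta4 and Gstm1 were far lower in the microglia-like cells of the knock-out-labelled library, while Gstp1 was higher in that library in all 6 classes.

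Gsta4, the alpha-class enzyme that conjugates the lipid peroxidation product 4-hydroxynonenal, was the gene with the widest difference in microglia-like cells. It had 45.1 CPM (281 UMIs) in microglia-like cells of the knock-out-labelled library and 204 CPM (3250 UMIs) in those of the wild-type library. The level was thus 4.53 times as high in wild type, a log2 ratio of knock-out over wild type of -2.18 (-2.36 to -2.004). In endothelial-like cells, where Gsta4 was highest among the classes of either library, it had 509 CPM in the knock-out-labelled and 584 CPM in the wild-type library, a log2 ratio of -0.20 (-0.27 to -0.13; 0.04 in capillary-like endothelial cells alone). Pericyte or smooth muscle-like cells had 302 CPM in the knock-out-labelled and 361 CPM in the wild-type library. The gene lies at chr9:78182774-78209349 on GRCm38, plus strand, in GENCODE M21.

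Gstm1, a mu-class enzyme of xenobiotic conjugation, followed the same order of classes. Microglia-like cells had 52.9 CPM (330 UMIs) in the knock-out-labelled library and 151 CPM (2400 UMIs) in the wild-type library, a log2 ratio of -1.51 (-1.68 to -1.34). Endothelial-like cells had 415 CPM in the knock-out-labelled and 389 CPM in the wild-type library (log2 ratio 0.09, interval 0.01 to 0.17). In pericyte or smooth muscle-like cells the levels were 309 CPM in the knock-out-labelled and 276 CPM in the wild-type library, with an interval that included equality. The Gstm1 ratio was thus past 2-fold in microglia-like cells and near equality in both vascular classes, where its sign depended on the setting. The gene spans chr3:108012255-108017973 on the minus strand, near Gstm5.

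In 4 classes, Gsta4 and Gstm1 kept close to a fixed proportion to the RNA of 9 endothelial markers (among them Cldn5, Pecam1 and Flt1). These markers summed to 2126 CPM in microglia-like cells of the knock-out-labelled library and 6472 CPM in those of the wild-type library, and endothelial-like cells had 22319 CPM in the knock-out-labelled and 20814 CPM in the wild-type library. Each of the markers was thus present in microglia-like cells, at a median of 10.2% of the endothelial level (6.94 to 14.1) in the knock-out-labelled library and 27.0% (18.0 to 36.5) in the wild-type library. Gsta4 in microglia-like cells stood at 8.86% of its endothelial level in the knock-out-labelled library and 35.0% in the wild-type library. Gstm1 stood at 12.8% in the knock-out-labelled library and 38.8% in the wild-type library, so that both genes were near or within the marker range. Per 1000 endothelial-marker UMIs of the knock-out-labelled library, Gsta4 had 21.2 UMIs in microglia-like, 22.8 in endothelial-like, 21.4 in pericyte or smooth muscle-like and 20.1 in erythrocyte-like cells. For the wild-type library the 4 values were 31.6, 28.0, 26.1 and 28.9. Gstm1 gave 24.9, 18.6, 21.9 and 17.9 UMIs in the knock-out-labelled library and 23.3, 18.7, 19.9 and 20.9 in the wild-type library. The microglia-like value was the highest of the 4 for Gstm1 in both libraries and for Gsta4 in the wild-type library. Oligodendrocyte-like cells gave 19.2 for Gsta4 and 115 for Gstm1 (1 and 6 UMIs) in the knock-out-labelled library. In the wild-type library they gave 29.2 and 23.9. With free RNA of the make-up of the whole library subtracted, microglia-like cells had -3.85 CPM of Gsta4 and 12.6 CPM of Gstm1 in the knock-out-labelled library, and 36.1 and 39.7 CPM in the wild-type library. The share of UMIs taken as free RNA was the endothelial-marker level of these cells over that of the whole library. It was 20.1% in the knock-out-labelled and 50.4% in the wild-type library. The unsubtracted levels in microglia-like cells are given as levels, not as expression by microglia. The part of carried-over RNA in the library difference was not tested.

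**Figure D2:**
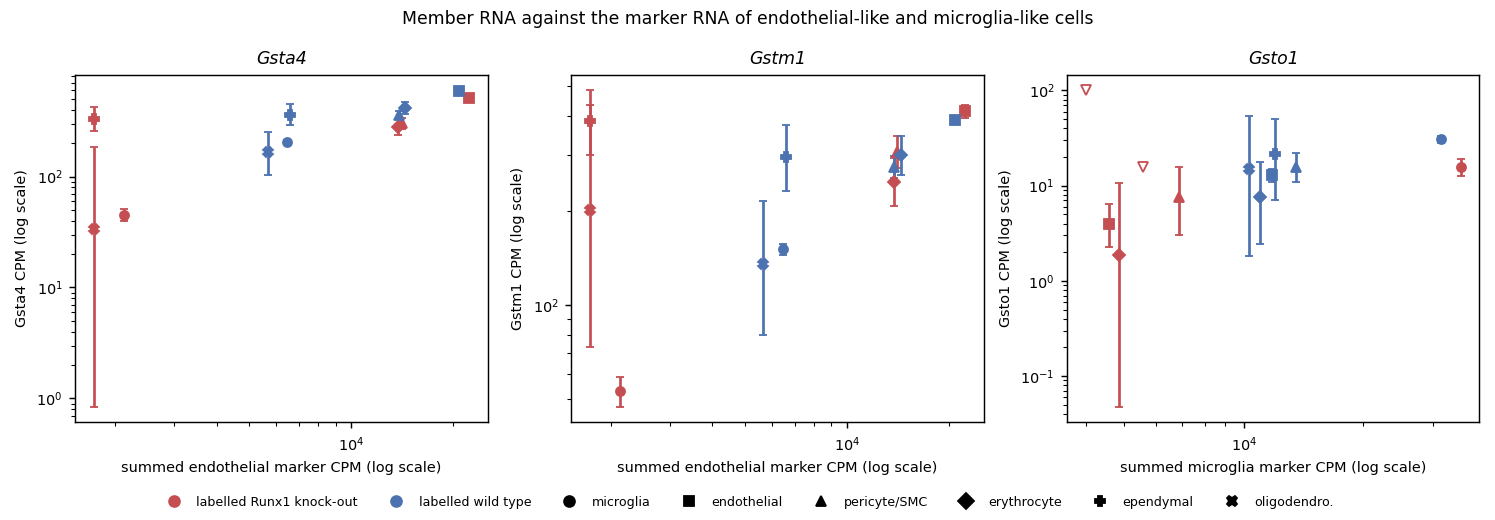
Level of Gsta4 and Gstm1 against the summed level of 9 endothelial markers, and of Gsto1 against the summed level of 12 microglial markers, all in CPM on log axes, for 6 classes (symbols) of the knock-out-labelled library (red) and the wild-type library (blue); open triangles are classes with 0 UMIs at the limit of 3 UMIs and bars are 95% Poisson intervals. Microglia-like, erythrocyte-like, pericyte or smooth muscle-like and endothelial-like cells line up for Gsta4 and Gstm1, and ependymal-like cells lie above that line. Oligodendrocyte-like cells of the knock-out-labelled library, with 6 Gstm1 UMIs, also lie above it for Gstm1.

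Ependymal-like cells, which line the central canal, departed from that proportion. Gsta4 had 191 UMIs per 1000 endothelial-marker UMIs in the knock-out-labelled library and 54.9 in the wild-type library. Its level there was 332 CPM in the knock-out-labelled and 362 CPM in the wild-type library, and that of Gstm1 was 385 CPM in the knock-out-labelled and 297 CPM in the wild-type library.

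The share of cells with a Gsta4 UMI was also lower in microglia-like cells of the knock-out-labelled library. After each cell was thinned to 1500 UMIs, Gsta4 was found in 6.65% of microglia-like cells (5.39 to 8.10, Clopper-Pearson) of the knock-out-labelled library and in 28.1% (26.3 to 30.1) of those of the wild-type library. Erythrocyte-like cells held a thinned Gsta4 UMI in 30.6% of knock-out-labelled and 34.5% of wild-type cells. Without thinning, the share of microglia-like cells was 17.8% in the knock-out-labelled library, at a median depth of 3476.5 UMIs, and 69.9% in the wild-type library, at 5539.5 UMIs. The erythrocyte-like cells had a median depth of 6360 UMIs in the knock-out-labelled and 10713 UMIs in the wild-type library, and their endothelial-marker sum was 13813 CPM in the knock-out-labelled and 14418 CPM in the wild-type library. The part of carried-over RNA in these shares was not tested.

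Gsto1, the omega-class enzyme with thioltransferase and dehydroascorbate reductase activity, had the opposite order of classes. Microglia-like cells had 15.6 CPM (97 UMIs) in the knock-out-labelled library and 30.7 CPM (489 UMIs) in the wild-type library, a log2 ratio of -0.98 (-1.31 to -0.67), or -1.77 with each library clustered on its own. That setting named only 626 knock-out-labelled cells microglia-like, against 1368 in the report, and 2205 wild-type cells. Endothelial-like cells had 3.99 CPM in the knock-out-labelled and 12.8 CPM in the wild-type library. The microglial level was thus 390% of the endothelial level in the knock-out-labelled library and 239% in the wild-type library. Among the 7 genes only Gsto1 was higher in microglia-like than in endothelial-like cells. Border-associated macrophage-like cells had 0 UMIs in 4 cells of the knock-out-labelled library, with an interval up to 137 CPM, and 37.6 CPM (16.2 to 74.1) in 19 wild-type cells. Per 1000 UMIs of 12 microglial markers, Gsto1 had 0.44 in microglia-like and 0.87 in endothelial-like cells of the knock-out-labelled library, and 0.98 in microglia-like and 1.09 in endothelial-like cells of the wild-type library. The microglial markers themselves summed to 35148 CPM in the knock-out-labelled and 31326 CPM in the wild-type library in microglia-like cells, and to 4584 CPM in the knock-out-labelled and 11758 CPM in the wild-type library in endothelial-like cells. The gene lies at chr19:47854970-47864790, plus strand.

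Gstp1, the pi-class enzyme, was higher in the knock-out-labelled library in every class. Microglia-like cells had 38.6 CPM (241 UMIs) in that library and 19.2 CPM (305 UMIs) in the wild-type library, a log2 ratio of 1.01 (0.76 to 1.26) that ran from 0.95 to 2.45 over the alternative settings. Endothelial-like cells had 101 CPM in the knock-out-labelled and 43.1 CPM in the wild-type library (log2 ratio 1.23, interval 1.03 to 1.42), and pericyte or smooth muscle-like cells had 132 CPM in the knock-out-labelled and 54.2 CPM in the wild-type library (1.28, interval 0.90 to 1.66). With free RNA subtracted these ratios were 0.98 in endothelial-like and 0.84 in pericyte or smooth muscle-like cells, under 2-fold. Microglial markers set the share of UMIs taken as free RNA there. It was 22.3% in knock-out-labelled and 54.0% in wild-type endothelial-like cells, and 33.4% and 62.4% in pericyte or smooth muscle-like cells. Without that subtraction the Gstp1 ratio ran between 0.99 and 1.40 over the 7 classes, with an interval that included equality only in border-associated macrophage-like cells. Oligodendrocyte-like cells had the highest level, 801 CPM (513 to 1192) in 8 cells of the knock-out-labelled library and 399 CPM (299 to 521) in 18 wild-type cells, apart from the next class.

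Counts of Gstp1 are uncertain for another reason. Of the 326 windows of 75 bases, the read length in the labels, in the last 400 bases of its longest coding transcript, 295 (90.5%) also occur in transcripts of Gstp2 or Gstp-ps. None of the windows of the other 6 genes occurred in another gene. How reads shared by 2 genes were counted is not stated in the labels. Gstp1 lies at chr19:4035407-4037985 and Gstp2 at chr19:4040285-4046023, both on the minus strand.

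Gstm5, a mu-class enzyme abundant in brain, had its highest level in oligodendrocyte-like cells too. There it had 801 CPM (513 to 1192) in the knock-out-labelled library and 459 CPM (351 to 589) in the wild-type library. Ependymal-like cells came next with 84.4 CPM in the knock-out-labelled and 94.8 CPM in the wild-type library. Their intervals overlapped those of endothelial-like cells, which had 58.3 CPM in the knock-out-labelled and 78.0 CPM in the wild-type library. Microglia-like cells had 27.7 CPM (173 UMIs) in the knock-out-labelled library and 50.3 CPM (800 UMIs) in the wild-type library, a log2 ratio of -0.86 (-1.10 to -0.62). Their level was 47.6% of the endothelial one in the knock-out-labelled library and 64.4% in the wild-type library, above the range of the endothelial markers in both libraries. The gene lies at chr3:107895821-107898686, plus strand.

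Mgst1, a membrane enzyme with transferase and peroxidase activity, was highest in ependymal-like cells, at 137 CPM (89.6 to 201) in the knock-out-labelled library and 138 CPM (94.3 to 195) in the wild-type library, though the first interval overlapped that of endothelial-like cells. Microglia-like cells had 12.7 CPM (79 UMIs) in the knock-out-labelled library and 20.2 CPM (322 UMIs) in the wild-type library, a log2 ratio of -0.68 (-1.05 to -0.32). In endothelial-like cells the order of the libraries was the other way, with 91.0 CPM in the knock-out-labelled and 67.3 CPM in the wild-type library (0.43, interval 0.25 to 0.61). That direction turned with each library clustered on its own, where the ratio was -0.18. That setting named 700 knock-out-labelled and 1642 wild-type cells endothelial-like. Microglial levels of Mgst1 were 13.9% of the endothelial one in the knock-out-labelled library and 30.0% in the wild-type library, within the range of the endothelial markers in both libraries. With free RNA subtracted they were 3.82 CPM in the knock-out-labelled and -2.90 CPM in the wild-type library, too low for a ratio. The part of carried-over RNA in these levels was not tested. Mgst1 spans chr6:138140316-138156755, plus strand.

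Mgst3, a membrane enzyme that reduces lipid hydroperoxides, had its highest well-counted level in pericyte or smooth muscle-like cells. These had 132 CPM (109 to 157) in the knock-out-labelled library and 89.5 CPM (77.3 to 103) in the wild-type library, a log2 ratio of 0.56 (0.22 to 0.89). Endothelial-like cells followed with 87.3 CPM in the knock-out-labelled and 64.5 CPM in the wild-type library (0.44, interval 0.25 to 0.62). Microglia-like cells had 30.6 CPM (191 UMIs) in the knock-out-labelled library and 27.7 CPM (441 UMIs) in the wild-type library, a log2 ratio of 0.14 with an interval from -0.11 to 0.39 that includes equality. This value depends on the processing: with free RNA of the whole library's make-up subtracted, microglia-like cells had 23.8 CPM of Mgst3 in the knock-out-labelled and 9.48 CPM in the wild-type library, a log2 ratio of 1.32, and with cells thinned to 1500 UMIs the ratio was -0.17. Its microglial level was 35.1% of the endothelial one in the knock-out-labelled library and 43.0% in the wild-type library, above the endothelial marker range in both libraries. The gene lies at chr1:167371966-167393841, minus strand.

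Counted at 2-fold or more, 2 of the 7 genes were lower in microglia-like cells of the knock-out-labelled library (Gsta4 and Gstm1), against a background of 5.4% of the 5756 genes with at least 20 CPM in either library. Only Gstp1 was 2-fold higher, where the background was 1.84%. Past 2-fold either way lay 7.24% of all genes. Both counts rest on genes chosen with these values known, so nothing is read from them. Gstp1 stood just inside the 2-fold limit at 1.01 and Gsto1 just outside it at -0.98. The median log2 ratio of the 7 genes was -0.86, against -0.04 for all genes. In endothelial-like cells 6 of the 7 genes reached 20 CPM, Gsto1 being the exception, and only Gstp1 of these 6 was 2-fold higher (background 0.7% higher, 2.9% lower and 3.6% either way). Pericyte or smooth muscle-like cells gave the same count, 1 of 6 and again Gstp1, where 2.55% of genes were 2-fold higher, 2.54% lower and 5.09% either way.

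**Figure D3:**
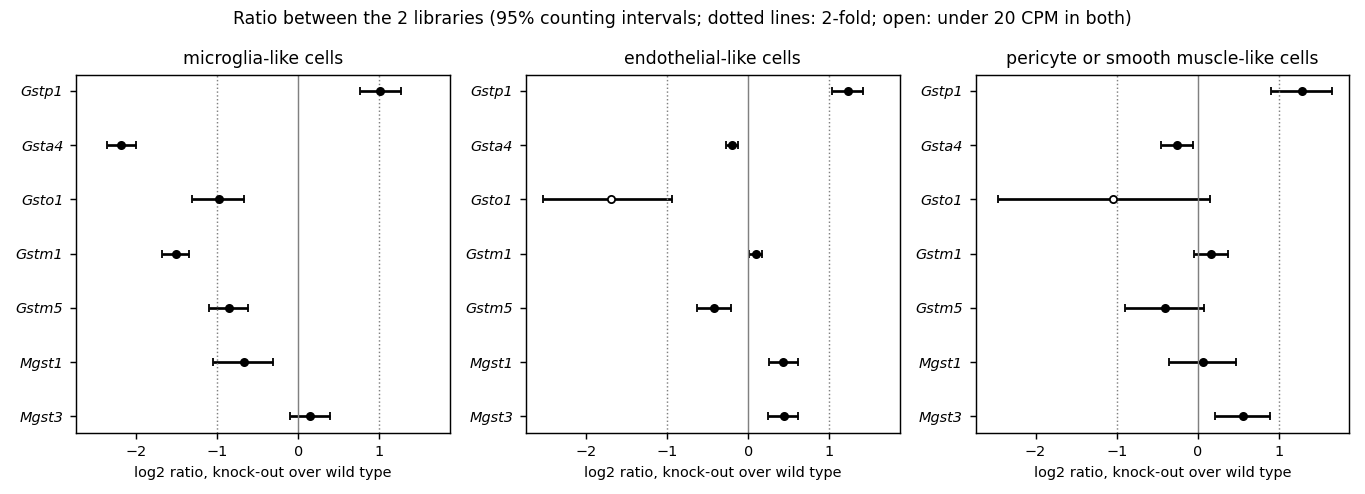
Log2 ratio of the knock-out-labelled library over the wild-type-labelled library for each gene in 3 classes, with 95% counting intervals and dotted lines at 2-fold; open points are genes under 20 CPM in both libraries. Gstp1 lies to the right of 1 in all 3 panels, and Gsta4 and Gstm1 lie beyond -1 in microglia-like cells only.

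Endothelial-like cells could be divided further into arterial-like, capillary-like and venous-like subclusters, formed without the genes described here. These held 224, 342 and 271 cells in the knock-out-labelled library and 386, 1127 and 122 cells in the wild-type library. Mgst1 was highest in arterial-like cells, at 153 CPM (130 to 179) in the knock-out-labelled library and 107 CPM (96.1 to 120) in the wild-type library. Capillary-like cells had 69.0 CPM in the knock-out-labelled and 53.4 CPM in the wild-type library, and venous-like cells had 69.5 CPM in the knock-out-labelled and 54.2 CPM in the wild-type library, with intervals below those of arterial-like cells in both libraries. Gstp1 also had its highest level in arterial-like cells. In the knock-out-labelled library it had 145 CPM in arterial-like, 90.3 in capillary-like and 82.0 in venous-like cells, the last 2 with overlapping intervals. In the wild-type library the values were 56.1, 41.7 and 26.3 CPM, with intervals apart. The wild-type capillary-like value pools subclusters of 714 and 413 cells. In the subcluster of 413 cells Gstp1 had 45.9 CPM (36.9 to 56.4), which overlapped the arterial-like interval (48.1 to 65.2). Gsta4 had its lowest value in arterial-like cells, at 379 CPM in the knock-out-labelled and 514 CPM in the wild-type library. Its highest was in capillary-like cells, at 641 CPM in the knock-out-labelled and 621 CPM in the wild-type library, and the wild-type arterial-like and venous-like (554 CPM) intervals overlapped. Gstm1 was lowest in venous-like cells, at 354 CPM in the knock-out-labelled and 295 CPM in the wild-type library, with intervals below those of the other subclusters. Arterial-like cells thus had the highest Mgst1 and Gstp1 values and the lowest Gsta4 values of the 3 subclusters in both libraries.

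**Figure D4:**
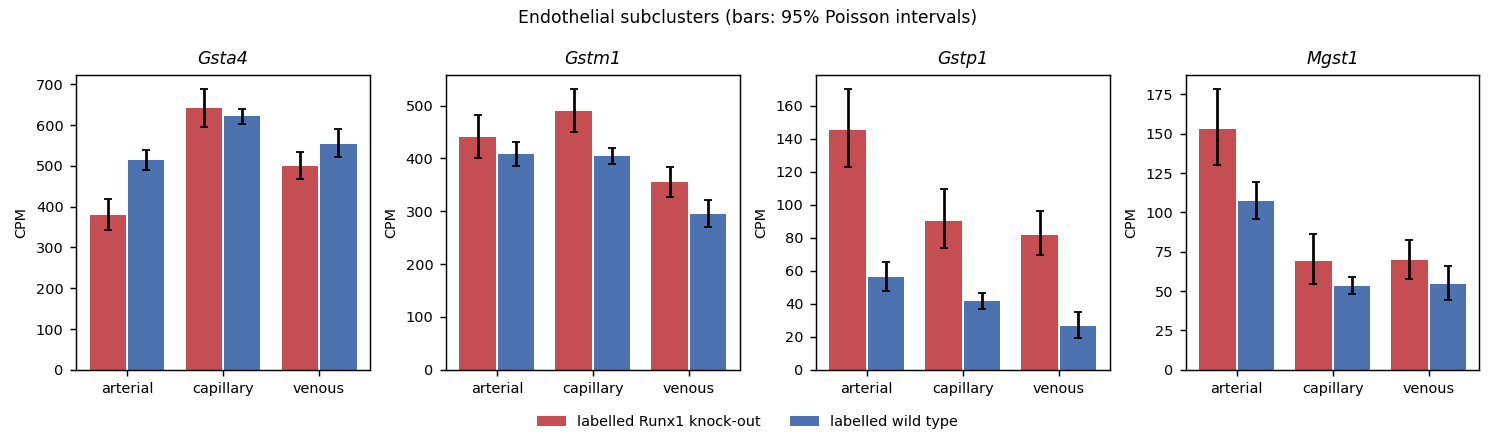
Level of 4 genes in CPM in arterial-like, capillary-like and venous-like endothelial subclusters of the knock-out-labelled library (red, left) and the wild-type library (blue, right); bars start at 0 and error bars are 95% Poisson intervals. Mgst1 and Gstp1 peak in arterial-like cells and Gsta4 is lowest there.

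Within microglia-like cells the 7 genes varied little. Over 3 subclusters of at least 50 cells in the knock-out-labelled library, the highest level was 1.23 (Mgst1) to 1.72 (Gsto1) times the lowest. Over 4 such subclusters of the wild-type library the span was 1.04 (Gstm5) to 1.58 (Mgst1) times. Gsta4 ran from 31.2 to 47.0 CPM over the subclusters of the knock-out-labelled library and from 198 to 218 CPM over those of the wild-type library. The endothelial markers summed to between 2076 and 2158 CPM in the former and between 6177 and 6594 CPM in the latter. Subclusters are parts of 1 library each and are not replicates.

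Across 12 class-by-library values of at least 10 cells, which share the 2 libraries and their free RNA, Gsta4 and Gstm1 had the most similar profiles of all pairs (Pearson r = 0.97 of log2(CPM + 10)). Gstm1 and Mgst1 (r = 0.86) and Gstp1 and Gstm5 (r = 0.75) followed. Of 5488 genes, those most like Gsta4 were Pltp, Ndufa7 and Arl2bp, and those most like Gstm1 were Pcp4l1, Bok and Nfib. Mgst1 was closest to Anxa5, Cyr61 and Zbtb20, and Gsto1 to Syngr2, Wdr44 and Zfos1. Nearest to Gstp1 were Fh1, Ubb and Tomm6, to Gstm5 Arl2, Tecr and Fis1, and to Mgst3 Cyth3, Cycs and Kif5b. These correlations ran from 0.92 to 0.98 and describe the 12 values only.

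Other members of the family divided by class as well. Microglia-like cells held Hpgds, Ltc4s and Alox5ap of lipid mediator synthesis, which belong to the same superfamilies. Hpgds, the sigma-class prostaglandin D synthase, had 415 CPM in the knock-out-labelled library and 408 CPM in the wild-type library (log2 ratio 0.03). Ltc4s, the leukotriene C4 synthase, had 503 CPM in the knock-out-labelled and 549 CPM in the wild-type library (-0.13). Alox5ap, which presents arachidonate to 5-lipoxygenase, had 562 CPM in the knock-out-labelled and 407 CPM in the wild-type library (0.47). Their levels in microglia-like cells thus differed by less than 2-fold, while the same genes were more than 2-fold lower in endothelial-like cells of the knock-out-labelled library. There Hpgds had 44.6, Ltc4s 102 and Alox5ap 70.8 CPM in the knock-out-labelled library, against 118, 267 and 144 CPM in the wild-type library. Microglial markers in those endothelial-like cells were lower too, at 4584 CPM in the knock-out-labelled library against 11758 CPM in the wild-type library, and their part was not tested. Gstm7, a mu-class gene, had an order like that of Gsta4, with 16.2 CPM in microglia-like and 111 CPM in endothelial-like cells of the knock-out-labelled library, and 49.95 and 119 CPM in those of the wild-type library. Gstt2, of the theta class, had 10.6 CPM in microglia-like and 34.2 CPM in endothelial-like cells of the knock-out-labelled library, and 25.01 and 40.8 CPM in those of the wild-type library. Gstm2, the kappa-class Gstk1 and the prostaglandin E synthase Ptges reached 20 CPM in endothelial-like but not in microglia-like cells. Their endothelial levels were 46.9, 33.4 and 22.9 CPM in the knock-out-labelled library and 36.2, 34.6 and 21.4 CPM in the wild-type library. Of 22 other transferase genes found, 5 reached that level in microglia-like cells, with 2 at least 2-fold lower and 0 higher, beside 5.4% of all genes lower and 1.84% higher. In endothelial-like cells 8 reached it, with 3 lower and 0 higher, beside 2.9% of all genes lower and 0.7% higher. No test underlies these counts.

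The wider glutathione pathway was read in the same microglia-like cells. Of 5 measured genes of glutathione synthesis and recycling, 8 peroxidases and peroxiredoxins and 9 genes of the thioredoxin and glutaredoxin system, 0 were 2-fold higher or lower, beside 7.24% of all genes, and nothing is read from so small a count. Slc3a2, a subunit of the cystine importer, had 407 CPM in the knock-out-labelled and 579 CPM in the wild-type library. Gclm, the modifier subunit of the first enzyme of glutathione synthesis, had 31.7 CPM in the knock-out-labelled and 48.8 CPM in the wild-type library. Prdx1, a peroxiredoxin, had 334 CPM in the knock-out-labelled and 627 CPM in the wild-type library (log2 ratio -0.91). Gpx1, a glutathione peroxidase, had 457 CPM in the knock-out-labelled and 492 CPM in the wild-type library. All 4 differed by less than 2-fold. Txnip, a thioredoxin inhibitor, had 248 CPM in the knock-out-labelled and 222 CPM in the wild-type library, and Glrx3, a glutaredoxin, had 129 CPM in the knock-out-labelled and 145 CPM in the wild-type library.

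Among 20 measured NRF2 regulators and other targets, 1 was 2-fold higher and 0 lower, near the 1.84% higher and 5.4% lower of all genes, so nothing is read from it. That gene was Maff, a small Maf partner of NRF2, with 90.6 CPM in the knock-out-labelled library and 41.3 CPM in the wild-type library (1.13, interval 0.97 to 1.30). The ferritin chains were the most abundant of the list, with 9311 CPM in the knock-out-labelled and 7458 CPM in the wild-type library for Ftl1 and 8751 CPM in the knock-out-labelled and 7476 CPM in the wild-type library for Fth1. Of 11 genes of conjugate export and aldehyde handling, 1 was 2-fold higher and 1 lower, beside the same shares of all genes. Abcc3, an exporter of organic anions, was higher, at 24.1 CPM in the knock-out-labelled and 11.9 CPM in the wild-type library (1.01). Abcg2 was lower, at 106 CPM in the knock-out-labelled and 285 CPM in the wild-type library (-1.43). Abcg2 is an efflux pump of brain endothelium, and its level in endothelial-like cells was 794 CPM in the knock-out-labelled and 813 CPM in the wild-type library. Akr1a1, an aldehyde reductase, had 314 CPM in the knock-out-labelled and 410 CPM in the wild-type library in microglia-like cells. In endothelial-like cells none of the measured genes of these 5 lists was 2-fold higher or lower, beside 3.6% of all genes.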

How the data were processed

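The authors deposited UMI counts for each gene and barcode, made with 10x Chromium 3' v2 chemistry per the labels' protocols. STAR, Cell Ranger 2.0.1, Seurat 2.1.0 and the builds mm10 and GRCm38.p5 appear, per the submitters' processing notes, without a stated role. Cells needed 300 genes or more and no more than 10% mitochondrial UMIs; 8 cells of the knock-out-labelled library and 0 of the wild-type library failed. The libraries were clustered jointly (scanpy 1.11.5, leidenalg 0.10.2; 2000 variable genes without the described genes and lists, Runx1 and sex-linked genes; 30 components, 15 neighbours, resolution 0.5), with no doublet caller in the values of the report. Clusters were named from marker lists, each within the library holding most of its cells; how markers were scored was set after the clusters were seen, so shares may depend on rebuilt names.

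For each class and library, UMI counts were summed and divided by their sum over the whole gene table (CPM, per 1000000 UMIs). Log2 ratios carry exact conditional binomial intervals and CPM exact Poisson intervals, at 95% (scipy 1.17.1). A count of 0 was put at 3 counts. Each UMI tags the 3' end of 1 molecule, so levels carry no length term. Genes entered counts of 2-fold differences at 20 CPM in either library. Positions come from GENCODE M21 (GRCm38), which held 27645 of the 27998 gene identifiers. The genes described, the lists and the markers were chosen with earlier results of these data known. Named were all 7 genes, Runx1, other transferases at 20 CPM, and of each further list the genes past 2-fold (up to 4) and the 2 most abundant, and the 3 genes most like each of the 7. The calculation was tested on simulated data. Depth was a median of 3715.5 UMIs per barcode in the knock-out-labelled library and 6376 in the wild-type library.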

Additional observations from a re-analysis of the deposited data

Results flagged for a closer look

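Gstm1 and Mgst1 had ratios of opposite sign in the 2 largest classes as processed for the report, but the endothelial sign of each turned under other settings. The log2 ratio of knock-out over wild type was -1.51 for Gstm1 in microglia-like cells and 0.0924 in endothelial-like cells, and the second interval (0.01 to 0.17) lies close to equality. Its endothelial sign was kept in 7 of 10 alternatives, with -0.19 the lowest value. For Mgst1 it was -0.68 in microglia-like cells and 0.43 in endothelial-like cells, or -0.18 in the latter with each library clustered on its own. With free RNA subtracted, Mgst1 in microglia-like cells stood at 3.82 CPM in the knock-out-labelled and -2.90 CPM in the wild-type library. Both values were under the floor of 5 CPM, so that setting gave no microglial ratio for Mgst1. The differences between the classes were not tested, since each condition had 1 library. Endothelial marker RNA in microglia-like cells was 2126 CPM in the knock-out-labelled library and 6472 CPM in the wild-type library, and its part was not tested.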

How the results depend on the processing

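No paired analysis was possible because each condition had 1 library, and no replicate could be left out. In microglia-like cells 3 genes were past 2-fold. That number became 5 with free RNA subtracted and 6 at 1.5-fold, and was between 2 and 4 under the other alternatives. The subtraction took 20.1% of the UMIs of microglia-like cells in the knock-out-labelled library and 50.4% in the wild-type library. With free RNA subtracted, Gsta4 stood at -3.85 CPM in the knock-out-labelled library and 36.1 CPM in the wild-type library (log2 ratio -2.85 after flooring at 5 CPM), Mgst3 at 23.8 CPM in the knock-out-labelled and 9.48 CPM in the wild-type library (1.32), and Gstp1 at 30.4 CPM in the knock-out-labelled and 5.55 CPM in the wild-type library (2.45). The microglial ratio of Gstp1 ran from 0.95 to 2.45, and it left the 2-fold count without mitochondrial, ribosomal and haemoglobin genes in the total (0.99), with the stricter cell filter (0.97), at resolution 1.0 (0.95) and at a minimum of 50 CPM, which it did not reach. Gsto1, at -0.98 in the report, was past 2-fold under 6 alternatives, reaching -1.77 with each library clustered on its own. That setting named 626 knock-out-labelled cells microglia-like and 700 endothelial-like, against 1368 and 837 in the report. The wild-type numbers there were 2205 and 1642. In endothelial-like cells the count of 1 became 0 with each library clustered on its own and with free RNA subtracted (Gstp1 at 0.96 and 0.98), and 2 with no minimum CPM. In pericyte or smooth muscle-like cells the count of 1 became 0 with free RNA subtracted (Gstp1 at 0.84) and 2 with no minimum CPM. The sign was kept in 68 of 69 alternative values for microglia-like, 64 of 69 for endothelial-like and 55 of 63 for pericyte or smooth muscle-like cells. Left out were genes under 5 CPM in both libraries with free RNA subtracted, which gave no ratio. These were Mgst1 in microglia-like cells (3.82 CPM knock-out-labelled, -2.90 CPM wild-type) and Gsto1 in endothelial-like cells (2.37 CPM knock-out-labelled, 2.14 CPM wild-type). Mgst1 in endothelial-like cells was -0.18 with each library clustered on its own, and Gstm1 ranged from -0.19 to 0.28, so both signs depend on the setting. Leaving out neutrophil-led and cycling subclusters, using capillary-like cells alone and keeping cells with little marker RNA of other classes were added after seeing the data. The last was not run, because it left 1 of 2200 wild-type microglia-like cells, against 659 of 1368 in the knock-out-labelled library. Ranked by the share of thinned cells with a UMI in place of CPM, the highest class of at least 10 cells was the same for 12 of 14 gene and library pairs. The cause of these shifts was not tested.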

Other observations

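Of the wild-type cells named microglia-like, 7 formed a subcluster led by the granulocyte genes S100a8, S100a9, Camp and Ngp. Mgst1 had 295 CPM (165 to 487, 15 UMIs) there, against 14.3 to 22.5 CPM in the 4 subclusters of at least 50 cells of that library. These cells were picked out after their values were seen.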
